A study of Mus musculus with 6 samples.

Results

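Cathepsins are proteases of the lysosome, and 8 of them (Ctsa, Ctsb, Ctsc, Ctsd, Ctsh, Ctsl, Ctss and Ctsz) are described here with legumain (Lgmn) and the inhibitor cystatin C (Cst3). These 10 genes were chosen by name, and all 10 were found among the 25124 genes of the deposited table. They were measured in RAW264.7 cells, an established mouse line with macrophage features. Both groups were control cells given a Cas9 plasmid that encoded no guide RNA, prepared as the counterpart of an E4BP4 knockout (not analysed here). The culture medium had 25 mM glucose plus 10% serum. The M2 cells were given IL-4 at 10 ng/ml (3 libraries), and the M0 cells no cytokine (3 libraries). How long IL-4 was applied is not stated in the sources used.

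Most cathepsins (B, C, H, L, S and Z) are cysteine proteases of the papain family, while cathepsin D is an aspartic protease and cathepsin A a serine carboxypeptidase. They are made as inactive precursors, carried to the lysosome largely by mannose-6-phosphate receptors, and activated there by acid and by cleavage, in which legumain takes part. Cystatins bind papain-family enzymes tightly and block them. In macrophages these proteases digest engulfed material and prepare antigens, and some of them are also secreted.

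Messenger RNA was measured as TPM, a unit scaled for transcript length and depth. The listed values summed to between 550163 and 559556 TPM per library, so 1 TPM is not a millionth of that sum. From the TPM values of the listed genes, between 15615639 and 19511192 reads were recovered per library, fewer than the totals in the file headers. Each of the 10 genes rested on at least 164 reads per library. Arg1, the arginase gene used as a check of the IL-4 response, stood at 16.0, 14.9 and 14.9 TPM in the M2 libraries, against 0.130, 0.135 and 0.257 TPM in the M0 libraries. All 8 macrophage markers checked passed the filter on low values, and they summed to 2431 to 2535 TPM in M2 and 2962 to 3185 TPM in M0 libraries. Of them Adgre1 rose and Itgam, Cd14 and Ptprc fell (4 of 8 called, against 43.7% of all tested genes). The Itgam call ended with no filter and without M0 replicate 1 or 2 (highest adjusted p = 0.0598). The part of this in the results on the 10 genes was not tested. Markers of fibroblasts, epithelium, endothelium and lymphocytes summed to at most 0.808 TPM per list in M2 and 1.06 TPM in M0 libraries. The 5 neutrophil markers summed to 4.12 to 5.74 TPM in M2 and 4.43 to 6.04 TPM in M0 libraries, almost all of it S100a8. M2 replicate 3 stood apart from both other M2 libraries: the chi-square of its reads per degree of freedom was at least 19.6 against them, and at most 5.73 for the other pairs within a group. Whether replicates were separate cultures is not stated, and p-values then cover only sample-to-sample spread, which may be technical. The titles mark all M0 libraries, and no M2 library, as re-analysed. A batch effect of that and the effect of IL-4 cannot be told apart.

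Under IL-4 the set changed little. Ctss rose to 1.19 times its M0 level, Ctsa fell to 0.824 times and Ctsb to 0.857 times, and the other 7 genes did not pass the test. The test was limma on log2(TPM + 1), with p-values adjusted over all 11202 tested genes and a call at an adjusted p under 0.05. All 10 genes passed the filter on low values and were tested. Of them 3 (30.0%) were called, against 43.7% of all tested genes. Upward there was 1 call, where 20.1% of all tested genes were called upward, and downward there were 2, where the share was 23.7%. The median log2 fold change was -0.02 over the 10 genes and -0.03 over all tested genes. Its median size, without sign, was 0.05 over the 10 genes and 0.22 over all tested genes. Ctsh aside, the lowest mean of the set was 52.9 TPM (Ctsc in M0). Over the 2126 tested genes at or above that level the median size was 0.18, and 47.6% were called. No M2 library overlapped an M0 library for 4 of the 10 genes, and 55.9% of all tested genes showed such a separation. Without M2 replicate 3 the same 3 genes were called, while the share over all tested genes was 50.8%. Ctsa then stood at a log2 fold change of -0.25 (adjusted p = 0.00462), Ctsb at -0.21 (adjusted p = 0.00772) and Ctss at 0.20 (adjusted p = 0.0116). In bulk samples, fewer cells with a transcript and less of it per cell cannot be told apart.

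**Figure D1:**
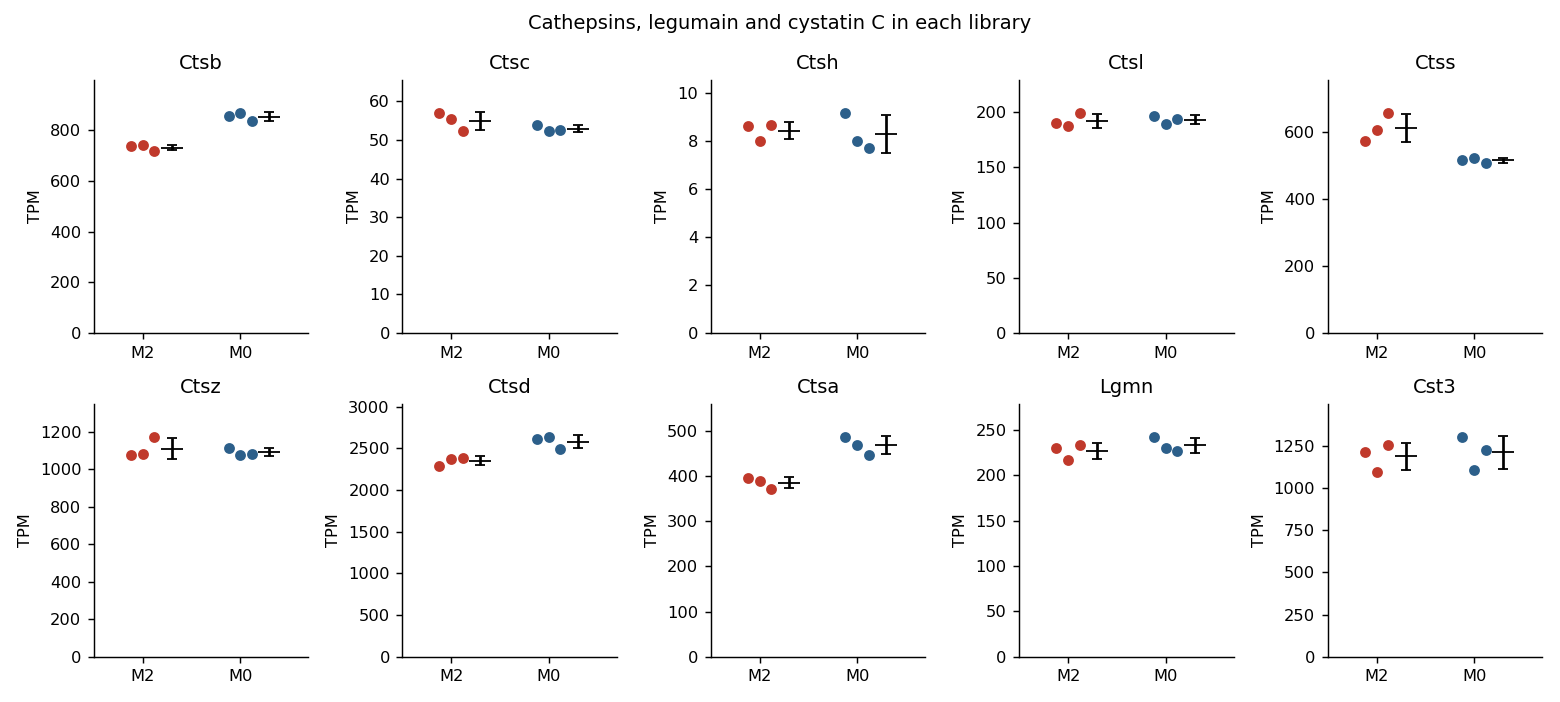
TPM of each gene in each library, with M2 in red on the left and M0 in blue on the right of each panel, and the mean ± SD of 3 libraries in black beside the points. The groups lie apart for Ctsb, Ctss, Ctsd and Ctsa, and overlap for the other 6 genes.

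Of the 6 papain-family members of the set, Ctss was the only one that rose in the test above. Cathepsin S is an endopeptidase that stays active at neutral pH and trims the invariant chain from MHC class II molecules. Ctss stood at 574, 607 and 657 TPM in the M2 libraries, against 516, 522 and 508 TPM in the M0 libraries. Every M2 library lay above every M0 library, and M2 replicate 3 was the highest of all. The means were 612.7 ± 41.5 TPM in M2 and 515 ± 7.36 TPM in M0 (SD, n = 3 each), a log2 fold change of 0.25 (SE 0.0633, 95% interval 0.10 to 0.39, adjusted p = 0.0125). Without M0 replicate 3 the call ended at a log2 fold change of 0.24 (adjusted p = 0.0585, within a range of 0.00991 to 0.0585 over 12 alternatives). The authors' deposited table gives Ctss a log2 fold change of 0.29 (adjusted p = 0.00190).

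Ctsb moved the other way. Cathepsin B cuts inside proteins and also removes dipeptides from their carboxyl end, and it is among the most abundant cysteine proteases of lysosomes. Its levels were 736, 739.8 and 719 TPM in the M2 libraries, against 858, 868 and 836 TPM in the M0 libraries. The groups lay apart by more than the range within either of them. Means were 732 ± 11.3 TPM in M2 and 854 ± 16.3 TPM in M0 (SD, n = 3 each), with a log2 fold change of -0.22 (SE 0.0541, 95% interval -0.35 to -0.10, adjusted p = 0.00983). The call ended with median-ratio scaling (adjusted p = 0.0503), on the authors' normalized values (0.0564) and without M0 replicate 2 (0.0576), and the adjusted p ranged from 0.00772 to 0.0576 over 12 alternatives. The authors' deposited table gives Ctsb a log2 fold change of -0.18 (adjusted p = 0.00804).

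The other 4 papain-family genes did not pass. Ctsz, which encodes a carboxypeptidase, had the highest level of the family, at 1079, 1081 and 1173 TPM in the M2 libraries, against 1116, 1076 and 1082 TPM in the M0 libraries. Its log2 fold change was 0.02 with a 95% interval of -0.12 to 0.16. Ctsl, an endopeptidase that also acts in the thymus on the invariant chain, was measured at 190.0, 188 and 199 TPM in M2 and 197, 189 and 194 TPM in M0 libraries. The interval of its log2 fold change, -0.12 to 0.11, was the narrowest of the 10. Ctsc, the dipeptidyl peptidase that activates serine proteases of granules, had 57.0, 55.5 and 52.3 TPM in M2 and 54.0, 52.3 and 52.5 TPM in M0 libraries, with an interval of -0.07 to 0.18. Ctsh, mainly an aminopeptidase, was the lowest of all, at 8.62, 8.01 and 8.65 TPM in M2 and 9.16, 7.998 and 7.69 TPM in M0 libraries. Its interval of -0.18 to 0.22 rested on 164 to 242 reads per library. The groups overlapped for each of these 4 genes, and their adjusted p lay between 0.471 and 0.920.

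Of the proteases outside the papain family, Ctsa was called. Cathepsin A is a serine carboxypeptidase that also holds neuraminidase 1 and beta-galactosidase in a stable complex. It was measured at 395, 388 and 371 TPM in the M2 libraries, against 486, 469 and 446 TPM in the M0 libraries. Every M2 library lay below every M0 library. Ctsa averaged 385 ± 12.2 TPM in M2 and 467 ± 19.9 TPM in M0 (SD, n = 3 each). Its log2 fold change of -0.28 (SE 0.0573, 95% interval -0.41 to -0.15, adjusted p = 0.00444) was the largest in size of the 10 genes, and 39.6% of all tested genes had a larger one. The authors' deposited table gives Ctsa a log2 fold change of -0.24 (adjusted p = 0.00127).

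Ctsd and Lgmn did not pass. Cathepsin D, the main aspartic protease of lysosomes, had the most abundant transcript of the set and ranked 6 among all tested genes by mean TPM. Ctsd stood at 2287, 2374 and 2385 TPM in the M2 libraries, against 2615, 2637 and 2492 TPM in the M0 libraries. Although its groups did not overlap, its log2 fold change of -0.14 missed the threshold (95% interval -0.28 to 0.01, adjusted p = 0.123), and it did not pass under any of the 12 alternatives. Legumain cuts after asparagine and converts some cathepsins to their mature chains. Lgmn had 229.8, 217 and 233 TPM in M2 and 242, 229.7 and 227 TPM in M0 libraries, with overlapping groups and an interval of -0.17 to 0.08.

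Cst3 encodes cystatin C, a secreted inhibitor that binds papain-family enzymes and, through another face of the protein, legumain. Its levels were 1212, 1093 and 1251 TPM in the M2 libraries, against 1301, 1107 and 1222 TPM in the M0 libraries. The groups overlapped, and the lowest library of each group was its replicate 2. The log2 fold change was -0.03 with a 95% interval of -0.21 to 0.16 (adjusted p = 0.798). Relative to the summed TPM of the 6 papain-family genes, Cst3 stood at 0.458, 0.408 and 0.445 in the M2 libraries, against 0.473, 0.407 and 0.456 in the M0 libraries. These ratios also overlapped, and they compare transcripts, not protein.

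**Figure D2:**
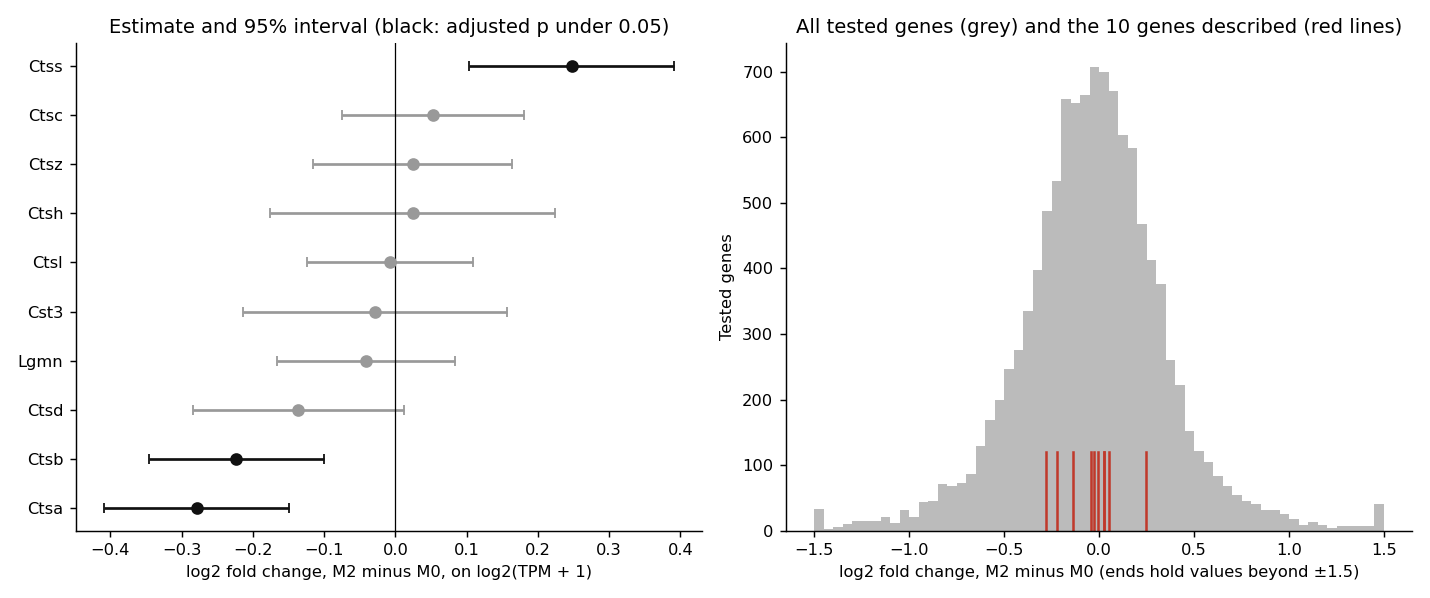
Left, log2 fold change of each gene, M2 minus M0 on log2(TPM + 1), with its 95% interval; black marks an adjusted p under 0.05 by limma. Right, the number of tested genes at each log2 fold change in grey, with the 10 genes as red lines between -0.28 and 0.25.

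Within the papain family, the shares of Ctss and Ctsb differed between the groups, while the ranges of the total overlapped. The 6 papain-family genes summed to 2645, 2678 and 2809 TPM in the M2 libraries, against 2749.7, 2716.5 and 2679.9 TPM in the M0 libraries. Ctss made up 21.7%, 22.7% and 23.4% of that sum in the M2 libraries, against 18.8%, 19.2% and 18.9% in the M0 libraries. The share of Ctsb was 27.8%, 27.6% and 25.6% in the M2 libraries, against 31.2%, 32.0% and 31.2% in the M0 libraries. Neither share overlapped between the groups, while that of Ctsz did, at 40.3% to 41.8% in M2 and 39.6% to 40.6% in M0 libraries. A ratio taken within a library does not depend on how libraries are scaled against each other. Ctss stood at 0.780, 0.820 and 0.914 times the TPM of Ctsb in the M2 libraries, against 0.601, 0.601 and 0.607 times in the M0 libraries. The M0 ratios lay close together, and the M2 ratios were more spread, with replicate 3 the highest. Over Ctsl the ratio of Ctss was 3.02, 3.23 and 3.29 in M2 libraries and 2.62, 2.76 and 2.62 in M0 libraries. These pairs were chosen after their values were seen and are given without a test, since 3 libraries against 3 cannot give an exact two-sided permutation p below 0.10. All 10 genes together summed to 6769, 6751 and 7049 TPM in the M2 libraries, against 7395, 7158.6 and 7067.5 TPM in the M0 libraries. That was 1.24% ± 0.0205 of the listed TPM in M2 and 1.30% ± 0.0275 in M0 (SD, n = 3 each).

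**Figure D3:**
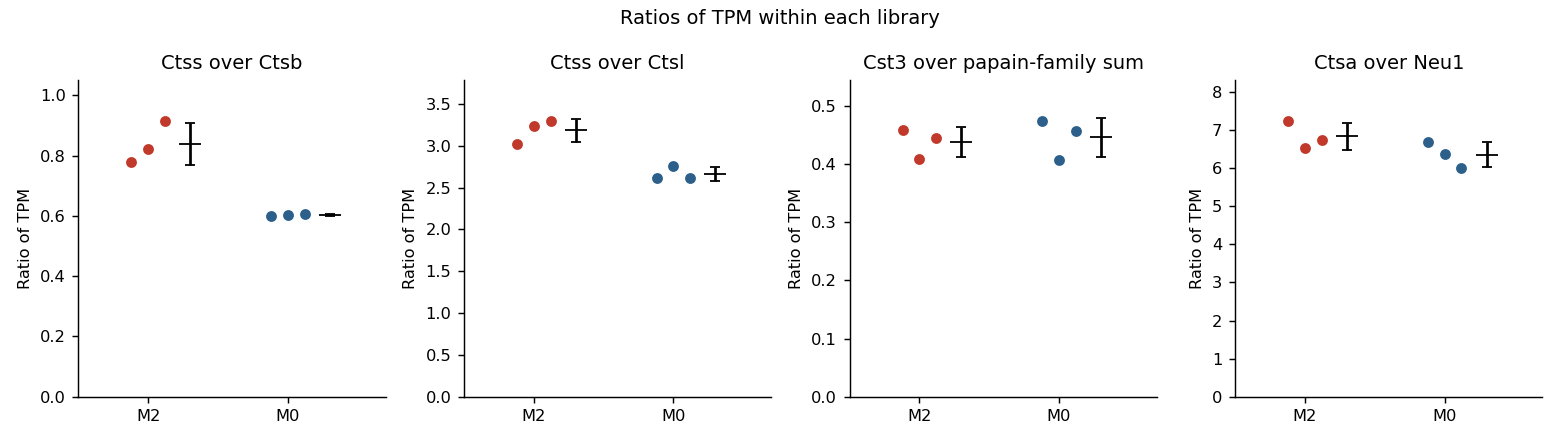
Ratios of TPM within each library, M2 in red on the left and M0 in blue on the right, with the mean ± SD of 3 libraries in black. Ctss over Ctsb and Ctss over Ctsl lie higher in all M2 libraries, while Cst3 over the papain-family sum and Ctsa over Neu1 overlap.

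By level, the order in both groups was Ctsd, Cst3, Ctsz, Ctsb, Ctss, Ctsa, Lgmn, Ctsl, Ctsc and Ctsh. Within either group only the neighbours Cst3 and Ctsz had overlapping ranges. This order depends on the transcript model that the length scaling uses. The TPM table gives Ctsc a model of 7457 bases and Ctsl one of 3499 bases, whereas the authors' comparison table lists 2459 and 1956 bases. For the other 8 genes the lengths of the tables differed by a factor of 1.08 at most. The longer models did not come with more reads: the unlogged normalized value of the comparison table, divided by the reads behind the TPM and set relative to the median gene, was 0.970 for Ctsc and 0.998 for Ctsl. The TPM of Ctsc and Ctsl are thus spread over 3.03 and 1.79 times the length in the comparison table. Per kilobase of the comparison table's models, Ctsl (5246.5) stood above Lgmn (3700.5) in the mean of all libraries, and Ctsc (2416) remained between Lgmn and Ctsh (128). A fixed length does not touch the ratio of a gene's TPM between libraries, and it acts on fold changes of log2(TPM + 1) only through the added 1. Ratios between genes, such as Ctss over Ctsl and the papain-family sum and shares above, do depend on the models. Ctss and Ctsl averaged 563.9 and 192.9 TPM over all libraries, against 8577 and 5246.5 per kilobase of the comparison table's models.

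**Figure D4:**
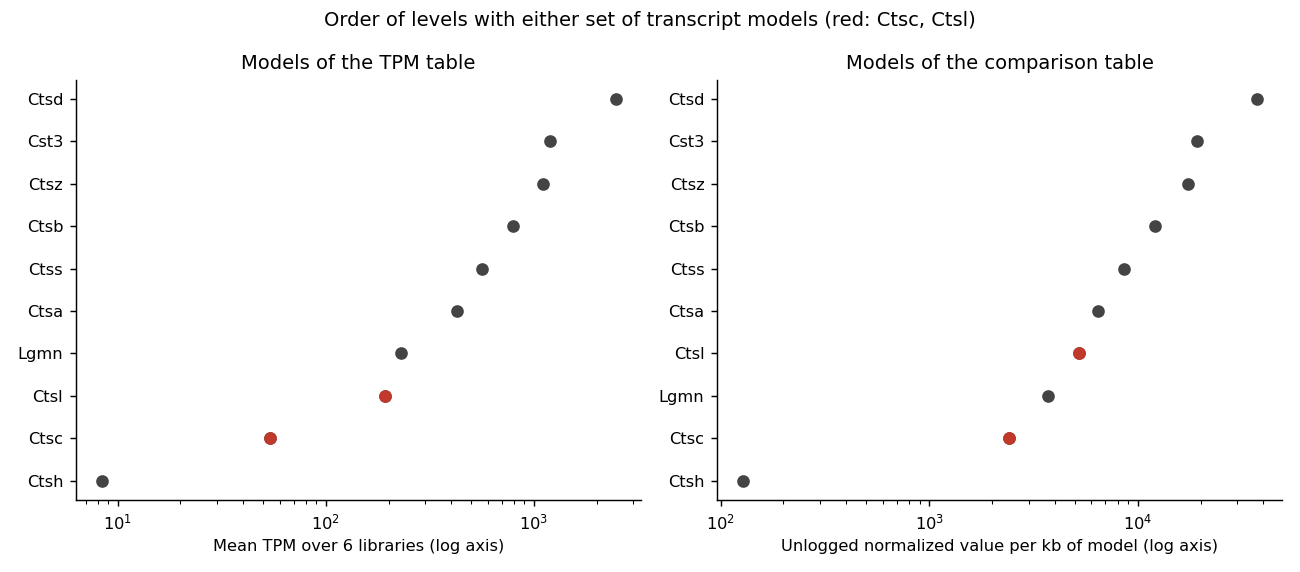
Left, mean TPM of each gene over all 6 libraries. Right, unlogged normalized value per kilobase of the comparison table's model. Both axes are logarithmic. Ctsl (red) moves above Lgmn with the shorter models, while Ctsc (red) moves up without passing another gene.

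On mm10, the build in the submitters' processing notes, the Ctss model is NM_001267695 (chr3:95526786-95556405, plus strand), that of Ctsb NM_007798 (chr14:63122462-63145923, plus strand) and that of Ctsa NM_008906 (chr2:164833773-164841032, plus strand). Ctsd is measured on NM_009983 (chr7:142375910-142387827, minus strand). In the GENCODE vM21 annotation, exons of Ctsa share 495 bases with Pltp, and those of Ctsb share 774 bases with Fdft1, both on the other strand. Because no source used here states whether reads were counted by strand, those within the shared bases cannot be assigned to a gene. Pltp averaged 12.7 ± 2.34 TPM in M2 and 13.8 ± 1.37 TPM in M0, and Fdft1 31.8 ± 1.09 TPM in M2 and 33.7 ± 1.87 TPM in M0 (SD, n = 3 each), far below the cathepsins beside them. Ctsd shares 670 exon bases with the predicted gene Gm49369 on its own strand, and Ctsl 977 with Gm47123 on the other strand. Ctsz shares 10 bases with Nelfcd on the other strand, which fell to a mean of 35.2 TPM in M2, against 44.0 TPM in M0 (adjusted p = 0.00273).

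Promoter windows from RefSeq (GRCm38.p6, 250 bases before to 50 after a gene's start) matched 8 of the 10 genes with 10 windows, Ctsb and Ctsh being the genes without a match. They are shown for the called genes Ctss and Ctsa, and for Ctsd and Ctsl, which did not pass, because they differ in motifs known from lysosomal and interferon-responsive promoters. Both strands were searched for CACGTG (the E-box at the core of the site bound by TFEB and its relatives), for an interferon-response motif of GAAA, any 2 bases and GAAA, and for a STAT6-type motif of TTC, any 4 bases and GAA. Capitals mark each match, and no matches overlapped.
Ctss, chr3:95526536-95526835, plus strand: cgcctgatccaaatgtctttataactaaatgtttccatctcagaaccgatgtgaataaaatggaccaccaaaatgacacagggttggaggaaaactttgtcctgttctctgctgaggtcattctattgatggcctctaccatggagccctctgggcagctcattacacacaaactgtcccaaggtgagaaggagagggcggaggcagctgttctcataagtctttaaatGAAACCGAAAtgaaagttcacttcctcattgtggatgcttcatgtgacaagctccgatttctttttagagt
Ctsa, chr2:164833523-164833822, plus strand: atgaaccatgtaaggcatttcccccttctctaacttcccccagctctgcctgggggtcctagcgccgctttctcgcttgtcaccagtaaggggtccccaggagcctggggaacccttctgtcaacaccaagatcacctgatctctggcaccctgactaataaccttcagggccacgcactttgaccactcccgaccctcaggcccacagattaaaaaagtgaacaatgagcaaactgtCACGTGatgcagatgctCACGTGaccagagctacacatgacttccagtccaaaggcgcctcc
Ctsd, chr7:142387778-142388077, minus strand: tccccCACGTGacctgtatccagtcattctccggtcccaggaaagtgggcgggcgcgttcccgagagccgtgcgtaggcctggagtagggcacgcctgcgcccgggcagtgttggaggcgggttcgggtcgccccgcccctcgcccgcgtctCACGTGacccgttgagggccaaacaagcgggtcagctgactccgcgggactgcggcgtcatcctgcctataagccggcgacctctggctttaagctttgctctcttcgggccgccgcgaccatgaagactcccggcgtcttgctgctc
Ctsl, chr13:64370471-64370770, minus strand: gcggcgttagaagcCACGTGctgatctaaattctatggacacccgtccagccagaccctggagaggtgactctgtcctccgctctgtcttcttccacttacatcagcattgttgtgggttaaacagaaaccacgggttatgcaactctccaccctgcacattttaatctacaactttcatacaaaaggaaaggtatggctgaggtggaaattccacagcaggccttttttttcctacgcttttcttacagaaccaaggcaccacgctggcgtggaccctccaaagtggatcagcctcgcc

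In the Ctss window the interferon-response motif began 21 bases before the start, and there was no CACGTG. The Ctsa window held CACGTG at 12 bases before and 5 bases after the start, the Ctsd window at 245 and 98 bases before it, and the Ctsl window at 236 bases before it. A match in 1 of the 2 windows of Lgmn lay 49 bases before that start. This window (chr12:102439043-102439342, minus strand) lies inside the measured Lgmn model (chr12:102394082-102439813). In all, CACGTG was present in 4 of the 10 windows, against 7.15% of all 32851 promoter windows. The interferon-response motif was in 1 of the 10 windows (3.44% of all windows) and the STAT6-type motif in 0 (6.95%). CACGTG was found beside the start of a gene that fell (Ctsa) and of genes that did not pass (Ctsd, Ctsl). For Lgmn, which did not pass, it was found within the measured model. A match of letters is a description and not a bound site, and the windows of Cst3, Ctsc and Ctsz and the other windows of Ctsa and Lgmn held no match.

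Outside the 10 genes, few cathepsins and cystatins were expressed. Of 14 other cathepsin genes 13 lay below the filter, and 6 of these were listed at 0 in every library. The tested gene, Ctso, had 16.6, 18.4 and 16.9 TPM in M2 and 14.6, 16.1 and 14.2 TPM in M0 libraries and did not pass (log2 fold change 0.19, adjusted p = 0.0718). It passed with median-ratio scaling, with limma-voom, on the authors' values and without M2 replicate 3, with a lowest adjusted p of 0.0187. Of 14 other cystatin genes 12 lay below the filter. Cstb, the cytosolic cystatin B, stood at 361 ± 27.9 TPM in M2 and 396 ± 32.7 TPM in M0 (SD, n = 3 each) and did not pass (adjusted p = 0.209).

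Cst7, the remaining cystatin, rose. It encodes cystatin F, an inhibitor that is sorted to lysosomes and, once cleaved, acts on cathepsin C. Cst7 had 4.54, 4.47 and 4.05 TPM in the M2 libraries, against 0.907, 1.48 and 1.16 TPM in the M0 libraries, without overlap. Its mean was 3.69 times as high in M2, and the log2 fold change was 1.30 on log2(TPM + 1), which understates low genes (SE 0.119, adjusted p = 6.21e-05). It rested on 204 reads over the M2 libraries and 51 over the M0 libraries, and it passed under 12 of 12 alternatives. Even so, its TPM was 0.00369 ± 0.000431 times that of Cst3 in M2 and 0.000994 ± 0.000323 times in M0 (SD, n = 3 each). The granule serine proteases that cathepsin C activates were near 0: all 6 lay below the filter, with at most 0.375 TPM summed in an M2 library and 0.376 TPM in an M0 library.

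Of 6 lysosomal peptidases without the cathepsin name, all tested, 3 fell and 3 did not pass, where 23.7% of all tested genes fell. Their median log2 fold change was -0.22, against -0.03 over all tested genes. Napsa, the aspartic protease napsin A, fell to 38.9 ± 1.44 TPM in M2, against 53.4 ± 3.10 TPM in M0 (SD, n = 3 each; adjusted p = 6.51e-04). Scpep1, a serine carboxypeptidase related to cathepsin A, fell to 134 ± 5.52 TPM in M2, against 163 ± 2.24 TPM in M0 (adjusted p = 0.00286). Prcp, a carboxypeptidase that cuts after proline, fell to 20.4 ± 1.64 TPM in M2, against 24.3 ± 1.06 TPM in M0 (adjusted p = 0.0264). The Prcp call ended without M0 replicate 1, 2 or 3 or M2 replicate 1 (highest adjusted p = 0.0953). Tpp1, the tripeptidyl peptidase, stood at 76.0 TPM in M2 and 86.7 TPM in M0 and did not pass (adjusted p = 0.0749), except with the replicate block and without M2 replicate 1 (lowest adjusted p = 0.0415).

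Of the partners of cathepsin A, Neu1 fell and Glb1 did not pass. Neu1, the sialidase that needs cathepsin A for its activity, had 54.6, 59.5 and 55.0 TPM in the M2 libraries, against 72.8, 73.6 and 74.3 TPM in the M0 libraries. Its log2 fold change was -0.38 (SE 0.0556, adjusted p = 7.71e-04). The ratio of Ctsa to Neu1 was 7.23, 6.53 and 6.75 in the M2 libraries, against 6.68, 6.37 and 6.01 in the M0 libraries, so the groups overlapped. Glb1, beta-galactosidase, averaged 46.0 TPM in M2 and 48.3 TPM in M0 (adjusted p = 0.371). Transcripts of Grn and Psap, whose protein products are precursors cut by cathepsins, fell. Grn, which encodes progranulin, fell to 403 ± 9.68 TPM in M2, against 518 ± 7.86 TPM in M0 (adjusted p = 6.89e-04). Psap, which encodes prosaposin, fell to 543 ± 18.9 TPM in M2, against 623 ± 9.76 TPM in M0 (SD, n = 3 each; adjusted p = 0.0176). The Psap call ended with median-ratio scaling, on the authors' values and without M0 replicate 2 or 3 (highest adjusted p = 0.0858).

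Of 12 genes of mannose-6-phosphate tagging, sorting and retromer, 11 were tested, of which 1 fell and 10 did not pass (43.7% of all tested genes were called in either direction). The median log2 fold change was 0.06, against -0.03 over all tested genes. Gga1, an adaptor that loads mannose-6-phosphate receptors into carriers, fell to 26.2 ± 2.08 TPM in M2, against 31.4 ± 0.0605 TPM in M0 (SD, n = 3 each; adjusted p = 0.0165). That call ended without M0 replicate 1, 2 or 3 (highest adjusted p = 0.0592). M6pr, the cation-dependent receptor, averaged 387 TPM in M2 and 355 TPM in M0 (adjusted p = 0.0960). Gnptg, a subunit of the enzyme that adds the tag, averaged 21.5 TPM in M2 and 18.6 TPM in M0 (adjusted p = 0.0743), and Nagpa, which uncovers the tag, 44.4 TPM in M2 and 39.5 TPM in M0 (adjusted p = 0.0884). All 3 had higher means in M2 and passed under some alternatives. Nagpa passed with median-ratio scaling, with limma-voom, on the authors' values and without M2 replicate 3 (lowest adjusted p = 0.00867). M6pr passed with limma-voom and on the authors' values (lowest 0.0425), Gnptg with median-ratio scaling (0.0499), and Vps35, a retromer subunit also with a higher mean in M2, without M2 replicate 3 (0.0319).

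All 4 genes of the MiT/TFE transcription factors, which bind lysosomal promoters, were called, 2 in each direction, where 20.1% of all tested genes rose and 23.7% fell. Tfec rose to 3.56 ± 0.551 TPM in M2, against 0.102 ± 0.0146 TPM in M0 (SD, n = 3 each; 304 reads over the M2 libraries and 8 over the M0 libraries; adjusted p = 6.56e-06). Mitf rose to 19.7 ± 1.84 TPM in M2, against 14.2 ± 1.44 TPM in M0 (adjusted p = 0.00547). Tfeb fell to 12.8 ± 1.02 TPM in M2, against 17.0 ± 0.389 TPM in M0 (adjusted p = 0.00415). Tfe3 fell to 15.0 ± 1.34 TPM in M2, against 21.1 ± 0.545 TPM in M0 (SD, n = 3 each; adjusted p = 0.00157). Each of the 4 passed under 12 of 12 alternatives.

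Of 8 genes of the class II pathway, in which cathepsin S acts, 3 were tested, of which 1 fell and 2 did not pass, where 43.7% of all tested genes were called. H2-DMa, a chain of the peptide-loading molecule, fell to 2.48 ± 0.368 TPM in M2, against 4.03 ± 0.520 TPM in M0 (SD, n = 3 each; adjusted p = 0.00688). Cd74, the invariant chain, averaged 398 TPM in M2 and 368 TPM in M0 with overlapping groups (adjusted p = 0.177). Ifi30, a thiol reductase of lysosomes, averaged 344 TPM in M2 and 381 TPM in M0 (adjusted p = 0.102). The class II chain genes, named after their values were seen, lay below the filter: H2-Ab1 had 52 reads over the M2 libraries and 10 over the M0 libraries, H2-Aa 26 and 0, and H2-Eb1 29 and 0. A count of 0 allows up to 3 reads, for counting error only.

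**Figure D5:**
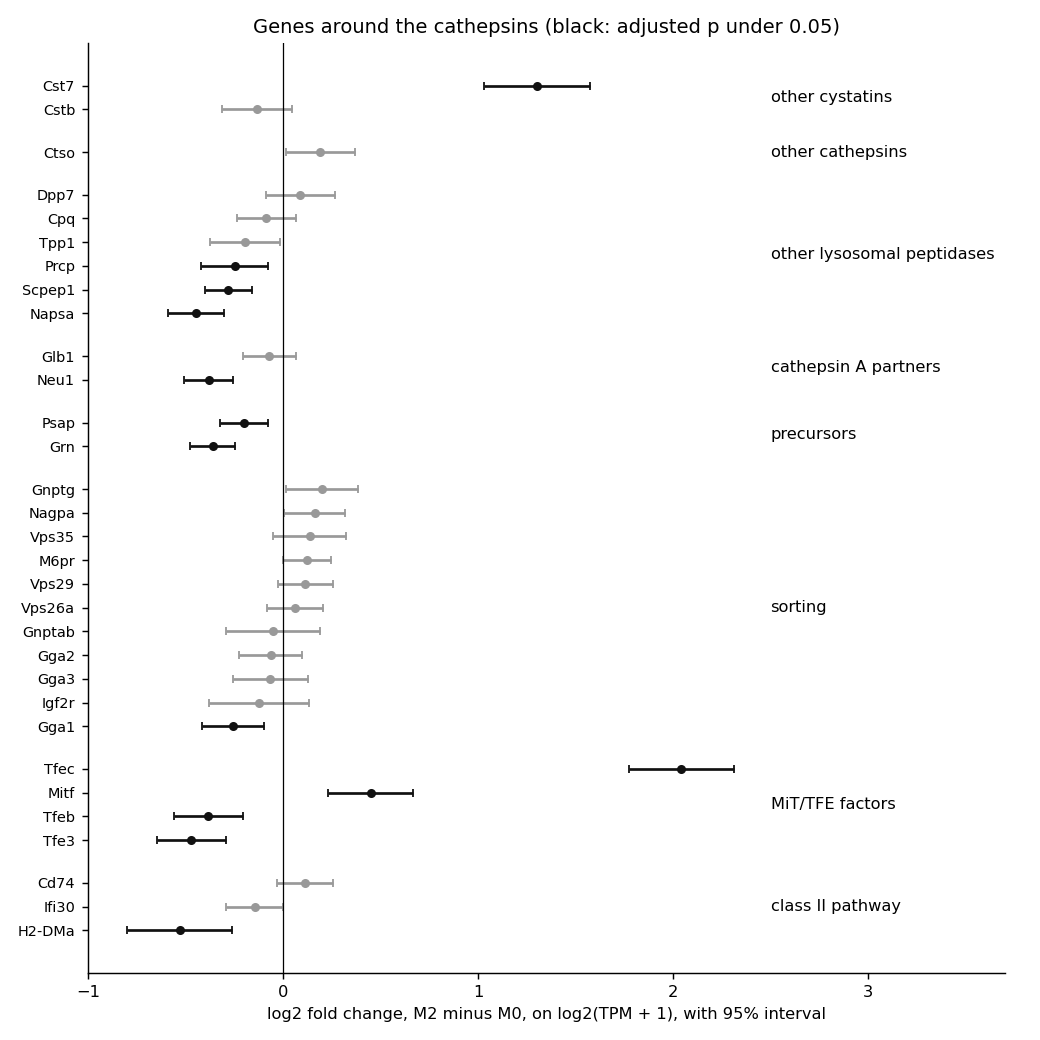
Log2 fold change, M2 minus M0 on log2(TPM + 1), with its 95% interval for each tested gene of the surrounding lists, named at the right; black marks an adjusted p under 0.05 by limma. Cst7 (1.30) and Tfec (2.04) lie to the right of all the others.

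The genes with the most similar profile over the 6 libraries, by Euclidean distance between centred log2(TPM + 1) values among 7107 candidates with a mean of at least 10 TPM, were found for the largest rise and the largest fall. For Ctss they were Tdp2 (distance 0.0507), Psmb7 (0.0555) and Atp5f1 (0.0599). For Ctsa they were Chst12 (0.0179), Ddx28 (0.0453) and Tspan31 (0.0466). All values share the same 6 libraries and the same difference between the groups.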

How the data were processed

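Poly(A) RNA of 3 M2 and 3 M0 libraries was made from 200 ng of total RNA each, per the labels' protocols. The submitters' processing notes list the build mm10 and the tools STAR 2.7.5a, bcl2fastq, DESeq2 and HOMER 4.11.1, with no role for any. Per the file headers the deposited tables hold the authors' TPM per gene and library (25124 genes), and the authors' log2-scale normalized values (24421 genes, transform not named) next to the authors' own fold changes and p-values, raw and adjusted. Checked against the per-library values, a positive fold change there means higher in M2.

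No counts were given, so the design's fallback was used: the 11202 genes that reached 1 TPM in 3 or more libraries were fitted with limma 3.58.1 in R 4.3.3 on log2(TPM + 1) by group, with an intensity trend and Benjamini-Hochberg adjustment over all of them. The fit was tested on simulated reads in which 200 genes were changed, against 4899 genes called in these data. The simulation changed far fewer genes than were called here, so it does not cover data in which so many genes differ. It also gave all libraries the same spread, so it does not cover the distance of M2 replicate 3. Reads were recovered as the product of TPM and model length divided by its smallest step in that library (whole within 0.1 read for 100.0% of values that could be resolved). The chi-square per degree of freedom between libraries of a group was at least 2.18, so no library was a duplicate.

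The 10 genes and the lists around them were chosen with earlier results of these data known. Named were the 10 genes, up to 4 list members with the lowest adjusted p, every called member where 5 or fewer passed, and 3 genes nearest in profile to the largest rise and fall. Arg1, Vps35, the class II chain genes and genes overlapping a cathepsin are named besides, outside this rule. Alternatives were a pseudocount of 0.1, no filter, median-ratio scaling, limma-voom with TMM on the recovered reads, the authors' normalized values, a replicate block and leaving out each library. Python 3.11.15 with numpy 2.4.6, pandas 2.3.3 and matplotlib 3.10.9 prepared tables and plots.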

Additional observations from a re-analysis of the deposited data

How the results depend on the processing

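Over the 3 called genes and 12 alternatives, 32 of 36 combinations kept the call and 4 ended it, and the 7 genes that did not pass were called in 0 of 84 combinations with these limma fits. The Ctsb call ended with median-ratio scaling (log2 fold change -0.19) and on the authors' normalized values (-0.16), and leaving out a library moved its log2 fold change between -0.24 and -0.21. For Ctss that range was 0.20 to 0.29. Ctsa passed under 12 of 12 alternatives. The number of called genes fell to 2 of the 10 under 4 alternatives: the authors' values, median-ratio scaling, and leaving out M0 replicate 2 or 3. Of all tested genes 48.3%, 46.3%, 32.1% and 31.7% were called under these, in that order, against 43.7% in the test used above. The cause of the lost calls was not tested. Ctsl, Cst3, Ctsh and Ctsz, which did not pass, changed sign under some alternatives, lying between -0.09 and 0.09 on the log2 scale.

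Replicate numbers are shared between the groups. Deviations from the group means correlated at -0.03, 0.21 and 0.03 for numbers 1, 2 and 3. Between unlike numbers the correlations lay between -0.20 and 0.17. With so few libraries these values cannot show whether the numbers pair the libraries. With the replicate number as a block 3 of the 10 genes and 4870 genes in all were called, against 3 and 4899 without it. Depth limits mainly Ctsh, with 164 to 242 reads per library.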
